A study of Mus musculus with 5 samples.

Results

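The proteasome is the protease that degrades proteins tagged with ubiquitin. A barrel-shaped core is built of outer rings of α subunits and inner rings of β subunits, and the β rings hold the catalytic sites. A regulatory cap binds the ubiquitin chain, removes it and unfolds the substrate. In immune cells and in cells exposed to interferon, 3 β subunits are exchanged for the immunoproteasome subunits, which favour the making of peptides for class I antigen presentation. In the lens, fibre cells lose their organelles as they mature, and the ubiquitin and proteasome pathway has been studied there as a means of protein removal in cells that are not replaced.

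The gene set was made of the rows that the deposited table annotates to the KEGG proteasome pathway. Of 49 such rows among 22183 genes, 43 had at least 10 counts in 2 or more of the 5 libraries and are the members described here. They comprised 14 core subunits (7 α and 7 β), 19 subunits of the regulatory cap (6 ATPases and 13 others), 2 immunoproteasome subunits, 4 genes of the activators PA28 and PA200, the inhibitor gene Psmf1, the assembly factor genes Pomp and Psmd9, and 1 predicted pseudogene. RNA came from whole lenses of 14-day-old mice. The cKO group (2 libraries) carried a conditional knockout of Yap1, a co-activator of transcription that Hippo signalling restrains, as Yap1 f/f;Cre or Yap1 f/+;Cre, and its lenses were taken by their severe phenotype of small eyes and a closed pupillary membrane. The Ctrl group (3 libraries) came from littermates without abnormalities that carried floxed alleles (Yap1 f/f or Yap1 f/+), although the genotype field calls them WT. Each library pooled 4 to 6 lenses, and neither the Cre line nor the sex of the mice is stated in the labels. P-values measure the spread between these pools.

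The libraries held 22047580 to 25762802 estimated counts. Yap1 had 3.76 and 2.27 CPM (counts scaled to library size with TMM factors) in cKO 1 and 2, against 7.19, 6.49 and 5.49 CPM in Ctrl 1, 2 and 3, and did not pass the test (edgeR adjusted p = 0.0759). The Y-linked gene Ddx3y was at 0 counts in both cKO libraries and at 30.4 to 39.6 CPM in Ctrl, so that sex and genotype cannot be told apart. The 9 lens fibre markers, genes of the cells that form most of a lens, were all detected in every library and summed to 254584 and 264400 CPM in cKO 1 and 2, against 217800 to 265808 CPM in Ctrl. Markers of other cells differed. Summed over 12 macrophage markers, cKO 1 held 295 CPM and cKO 2 held 60.0 CPM, whereas the Ctrl libraries held 2.27 to 4.04 CPM. Of the 10 macrophage markers tested, 9 were higher in cKO. Of 7 lens epithelium markers, 5 were lower in cKO, and Cdh1, the E-cadherin gene, was all but undetected there (1 and 0 counts). The cKO libraries were also less alike (Pearson r of log2 CPM across genes 0.929) than the Ctrl libraries were (0.98 to 0.987). In bulk RNA, fewer cells of a type and less RNA per cell cannot be told apart, and the part of these differences in the results below was not tested.

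Most proteasome genes had small positive fold changes in cKO lenses, with TMM scaling to a larger extent in cKO 1 than in cKO 2. Few of them passed the test, and the largest change was in the gene of an activator. Of the 43 members, 4 were higher in cKO and 0 were lower (edgeR quasi-likelihood test, Benjamini-Hochberg adjusted p under 0.05 over 11724 genes). These were Psme4, Psma2, Psmd4 and Psmd7. Of all genes tested, 5.76% were higher and 7.73% were lower. The 4 called members are 9.3% of the 43, and among the 4286 genes with a mean of at least 10 CPM 9.4% were higher and 8.52% lower, so the share of called members did not stand above that of other abundant genes. At an unadjusted p under 0.05 edgeR gave 11 members as higher and 2 as lower (14.8 and 17.4% of all genes). DESeq2 called 9 members higher (20.9%; 7.52% of all genes in that fit) and limma on log2(FPKM + 1) called 17 (39.5%; 11.8% of all genes), and neither called any lower (9.78 and 6.34% of all genes). The DESeq2 shares are of 15761 genes with any count, against 11724 in the other fits. For DESeq2 and limma the share among abundant genes was not computed. With the replicate block, and with any 1 Ctrl library left out, 0 members were called in either direction.

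The log2 fold change was positive for 35 of 43 members (81.4%), against 47.1% of all genes tested and 56.2% of genes with at least 10 CPM. The members' median was 0.27, against −0.06 over all genes tested and 0.09 over genes with at least 10 CPM. Both values rested in large part on cKO 1. Without it 25 of 43 members (58.1%) were positive, against 45.7% of all genes, and the members' median was 0.05, against −0.10 over all genes. Without cKO 2, 38 members (88.4%) were positive, against 46.5% of all genes, and the medians were 0.42 for the members and −0.08 for all genes. In CPM, every cKO library lay above every Ctrl library for 20 members (46.5%; 22.8% of all genes tested, 31.0% of those with at least 10 CPM) and below every Ctrl library for 3 (6.98%; 28.7% of all genes tested). In FPKM, which the authors scaled per length and library, these numbers were 32 above and 2 below (31.0 and 20.4% of all genes tested), and Psmc4 was no longer below. Summed over the members, the CPM were 4306 and 3558 in cKO 1 and 2, against 3373, 3447 and 3377 in Ctrl 1, 2 and 3, and the groups did not overlap. The same genes took 0.433 and 0.421% of all counts in cKO, against 0.301, 0.32 and 0.341% in Ctrl. Scaling by total counts, which moves the median of all genes by 0.22 to 0.16, gave 10 higher members and 0 lower, with 1234 genes higher and 717 lower over the whole table (675 and 906 with TMM).

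**Figure D1:**
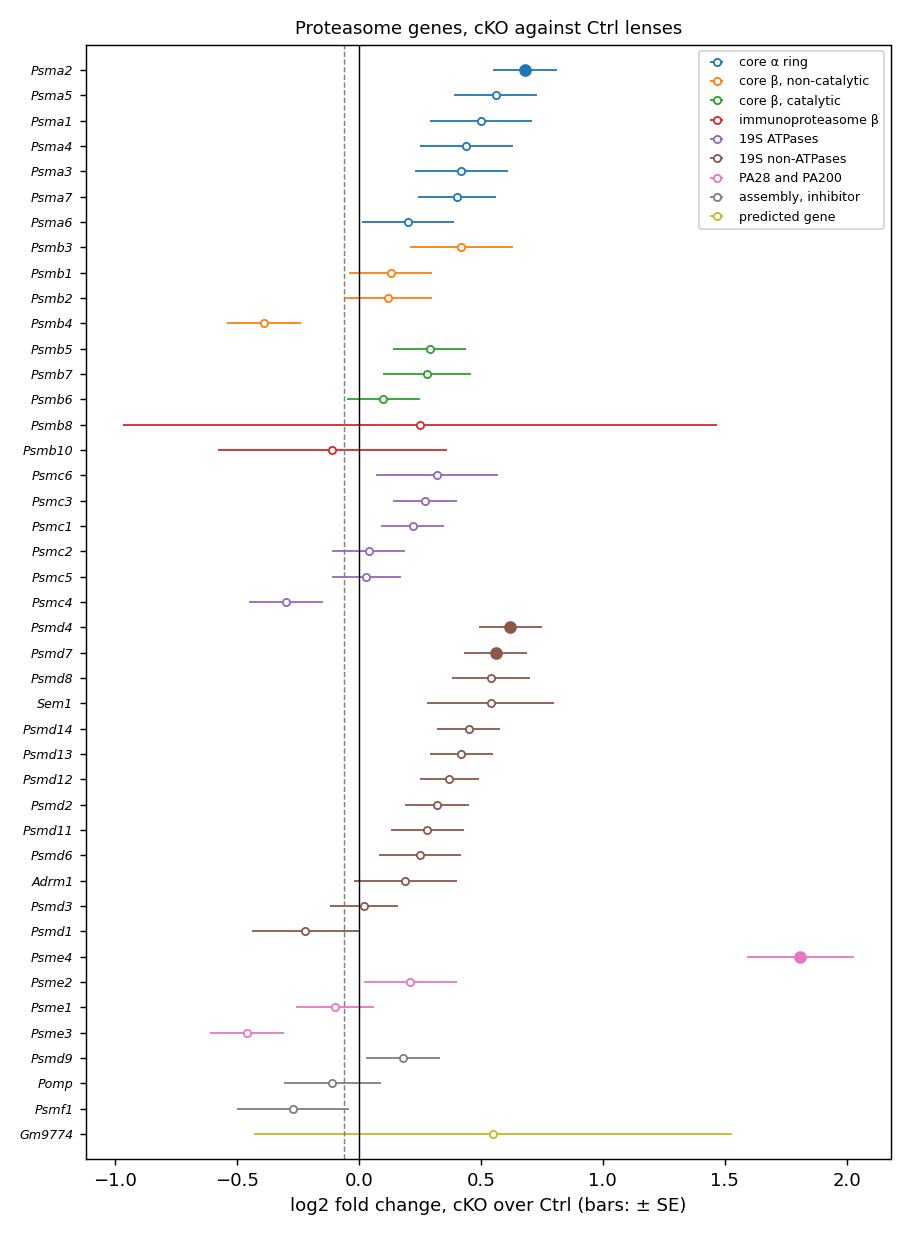
Log2 fold change (cKO over Ctrl, ± SE; edgeR) of the 43 proteasome genes, grouped by role, with filled points for the 4 genes past the threshold. The dashed line is the median of all genes tested (−0.06). Most points lie between 0 and 0.68, Psme4 lies apart at 1.81, and Psmb4, Psmc4 and Psme3 lie below −0.29.

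Promoter sequence was at hand for 36 of the 43 members (RefSeq, build GRCm38.p6, 250 bases before to 50 after the gene's start; the counts were made on another build, GRCm39). For the called genes it is shown here up to the start, or to the end of a motif that runs past it, 5′ to 3′ on the gene's strand. The called genes were taken because they passed the edgeR threshold with all libraries. Capitals mark 1 match each of TGACNNNGC, the core of the antioxidant response element that NRF1 and NRF2 bind, in Psme4 (chr11:30771525-30771776, plus strand), and CCAAT, the box bound by NF-Y, in Psma2 (chr13:14612992-14613241, plus strand) and Psmd4 (chr3:95042615-95042864, minus strand). In Psme4 and Psmd4 the match is on the opposite strand, so it reads as its reverse complement.
Psme4: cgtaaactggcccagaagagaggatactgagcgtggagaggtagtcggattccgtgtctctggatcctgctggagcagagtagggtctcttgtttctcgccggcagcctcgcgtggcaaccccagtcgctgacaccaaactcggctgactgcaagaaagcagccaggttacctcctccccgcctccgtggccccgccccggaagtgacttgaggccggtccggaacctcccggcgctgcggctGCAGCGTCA
Psma2: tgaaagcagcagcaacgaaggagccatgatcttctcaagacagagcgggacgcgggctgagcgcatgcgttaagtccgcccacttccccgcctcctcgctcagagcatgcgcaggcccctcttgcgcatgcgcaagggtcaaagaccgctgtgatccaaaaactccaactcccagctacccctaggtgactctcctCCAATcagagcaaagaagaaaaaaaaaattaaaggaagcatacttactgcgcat
Psmd4: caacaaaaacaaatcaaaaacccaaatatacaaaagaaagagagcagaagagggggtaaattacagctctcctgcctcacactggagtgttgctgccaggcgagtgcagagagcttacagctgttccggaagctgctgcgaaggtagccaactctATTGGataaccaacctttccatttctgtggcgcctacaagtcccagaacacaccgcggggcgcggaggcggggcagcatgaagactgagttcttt

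TGACNNNGC on either strand was in the window of 8 of the 36 members (22.2%), against 17.2% of the tested genes with a promoter and 3781 of all 27025 symbols in the promoter table. The same letters followed by A, a longer form of the element, was in 3 (8.33%, against 3.21% of tested genes), Adrm1, Psmd12 and Psme4. In Psme4 the match begins 7 bases before the start. CCAAT was in 12 of 36 members (33.3%), against 43.6% of tested genes. Psma2 and Psmd4 held CCAAT and no TGACNNNGC, and Psme4 held TGACNNNGC and no CCAAT. Neither motif was thus in all 3 called genes with a promoter. Psmd7 had no promoter sequence here, and other motifs were not searched. For comparison, the matches in the core genes Psmb5 (chr14:54618019-54618057, minus strand) and Psmb6 (chr11:70525333-70525371, plus strand) and in the cap gene Psmd12 (chr11:107479278-107479304, plus strand) were as follows, with the motif in capitals (in Psmd12 on the opposite strand).
Psmb5: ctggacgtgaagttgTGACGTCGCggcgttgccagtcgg
Psmb6: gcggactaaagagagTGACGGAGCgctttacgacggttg
Psmd12: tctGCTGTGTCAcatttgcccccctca

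None of these 3 genes passed the test (edgeR adjusted p = 0.242, 0.684 and 0.0917), and among the 3 called members with a promoter 1 held TGACNNNGC and 2 held CCAAT. A match is a run of letters in this window and not a measured binding site.

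Psme4 encodes PA200, an activator that caps the core without using ATP and is known for a role in the removal of histones. It had 37.3 and 30.2 CPM in cKO 1 and 2, against 7.65, 11.5 and 9.71 CPM in Ctrl 1, 2 and 3. Both cKO libraries lay well above the Ctrl libraries, with means of 33.8 ± 5.04 CPM in cKO (SD, n = 2) and 9.63 ± 1.93 CPM in Ctrl (SD, n = 3), a ratio of 3.51. Its log2 fold change was 1.81 (SE 0.22, edgeR adjusted p = 0.0101), the largest of the members. Per length it was still the least abundant activator in both groups, at 5.96 ± 0.244 FPKM in cKO and 1.45 ± 0.346 FPKM in Ctrl.

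The other activator genes encode PA28, a cap that also works without ATP and whose αβ form (Psme1 and Psme2) is induced by interferon-γ. Psme1 had 20.7 and 17.2 CPM in cKO, against 21.4, 18.9 and 20.8 CPM in Ctrl (log2 fold change −0.10, SE 0.16, edgeR adjusted p = 0.711). Psme2 had 21.2 and 25.5 CPM in cKO, against 23.8, 19.2 and 17.5 CPM in Ctrl (0.21, SE 0.19, edgeR adjusted p = 0.506), and a part of its reads was shared with another gene. The groups overlapped for both genes. Psme3 encodes the nuclear PA28γ and had 37.6 and 31.4 CPM in cKO, against 46.9, 50.4 and 45.1 CPM in Ctrl. Both cKO libraries lay below all Ctrl libraries, but the change of −0.46 (SE 0.15) did not pass (edgeR adjusted p = 0.0901).

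The core subunits had a median log2 fold change of 0.34. In the α ring, which gates the entry to the barrel, all 7 genes had positive values, from 0.20 (Psma6) to 0.68 (Psma2), with a median of 0.44. Psma2 (α2) had 99.7 and 90.5 CPM in cKO, against 56.8, 61.1 and 60.3 CPM in Ctrl, and it was higher in cKO (0.68, SE 0.13, edgeR adjusted p = 0.0262). The cKO libraries lay close together, well above the Ctrl libraries. Psma3 (α7), the most abundant α gene per length, had 171 and 114 CPM in cKO, against 104, 103 and 111 CPM in Ctrl. Only cKO 1 stood far from the Ctrl libraries there, and the change of 0.42 (SE 0.19) did not pass (edgeR adjusted p = 0.19). Psma1 (0.50), Psma4 (0.44), Psma5 (0.56) and Psma7 (0.40) did not overlap between groups either and did not pass (edgeR adjusted p = 0.0808 to 0.166).

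The β ring was less uniform. Its catalytic subunits are β1 (Psmb6), β2 (Psmb7) and β5 (Psmb5). Psmb5, the chymotrypsin-like subunit and the main target of proteasome-inhibiting drugs, had 161 and 195 CPM in cKO, against 132, 149 and 154 CPM in Ctrl (0.29, SE 0.15, edgeR adjusted p = 0.242). Psmb6 had 264 and 215 CPM in cKO, against 210, 231 and 229 CPM in Ctrl (0.10, SE 0.15, edgeR adjusted p = 0.684). Psmb7 had 96.7 and 72.4 CPM in cKO, against 64.5, 67.0 and 77.3 CPM in Ctrl (0.28, SE 0.18, edgeR adjusted p = 0.323). The groups overlapped for Psmb6 and Psmb7 and not for Psmb5, and counts of Psmb7 held reads shared with another gene in all 5 libraries. Of the non-catalytic β genes, Psmb3 (β3) had 187 and 119 CPM in cKO, against 113, 111 and 119 CPM in Ctrl (0.42, SE 0.21, edgeR adjusted p = 0.215), and cKO 1 alone stood apart. Psmb4 (β7), described here after its values were seen, went the other way, with 120 and 96.2 CPM in cKO, against 147, 142 and 136 CPM in Ctrl. It lay below every Ctrl library in both cKO libraries but did not pass (−0.39, SE 0.15, edgeR adjusted p = 0.133). Psmb1 (0.13) and Psmb2 (0.12) overlapped between groups.

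**Figure D2:**
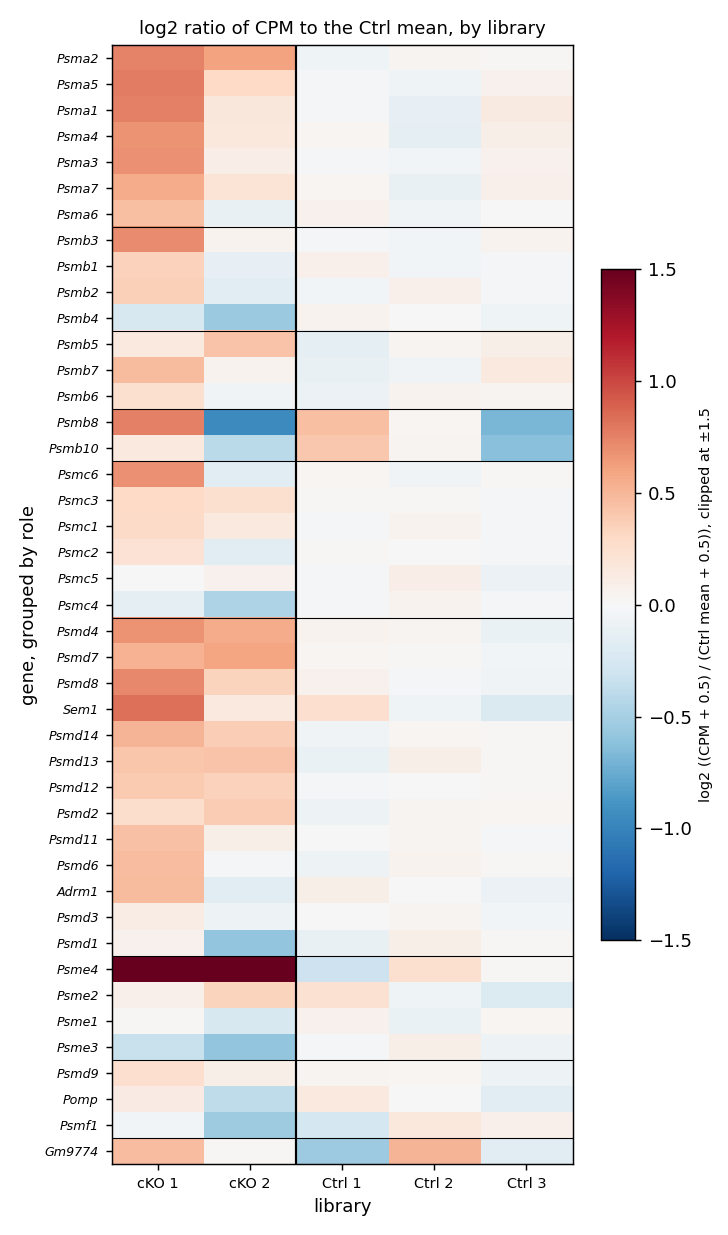
Colour gives the log2 ratio of each library's CPM to the Ctrl mean (0.5 added to both, clipped at ±1.5), with the cKO libraries left of the line and the genes grouped by role. The α ring and most 19S non-ATPase genes are red in cKO 1 and paler in cKO 2, with medians of 0.68 and 0.17 for the α ring and 0.46 and 0.34 for the non-ATPases, and Psme4 is deep red in both.

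The regulatory cap had a median of 0.28 over 19 genes, which fall into the ATPases of its base and the other subunits. The 6 ATPases, which unfold substrates and thread them into the core, had a median of 0.13. Of these, 0 were called by edgeR, 0 had an unadjusted p under 0.05, 0 were called by DESeq2 and 1 was called by limma on log2(FPKM + 1). Psmc5 (Rpt6), the most abundant per length, had 224 and 236 CPM in cKO, against 222, 242 and 212 CPM in Ctrl (0.03, SE 0.14, edgeR adjusted p = 0.903). Psmc6 (Rpt4) had 89.4 CPM in cKO 1 and 49.8 CPM in cKO 2, on either side of the 56.8, 53.7 and 56.3 CPM in Ctrl (0.32, SE 0.25, edgeR adjusted p = 0.417). Psmc4 (Rpt3) had a negative value of −0.30 (edgeR adjusted p = 0.225), and Psmc1, Psmc2 and Psmc3 had values of 0.22, 0.04 and 0.27.

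The 13 non-ATPase genes had a median of 0.37, with 12 positive values and 2 calls. Psmd4 encodes Rpn10, a receptor for ubiquitin chains. It had 155 and 142 CPM in cKO, against 100, 99.7 and 90.4 CPM in Ctrl (0.62, SE 0.13, edgeR adjusted p = 0.0334). Psmd7 encodes Rpn8, the partner of the deubiquitinase Rpn11, and had 59.9 and 62.9 CPM in cKO, against 42.5, 42.3 and 40.4 CPM in Ctrl (0.56, SE 0.13, edgeR adjusted p = 0.0386). For both genes the cKO libraries were alike and lay above all Ctrl libraries. Rpn11 itself (Psmd14) had a change of 0.45 (SE 0.13) that did not pass (edgeR adjusted p = 0.0725). Psmd8 (0.54), Psmd13 (0.42), Psmd12 (0.37), Psmd2 (0.32) and Psmd11 (0.28) likewise had no overlap between groups and did not pass (edgeR adjusted p = 0.069 to 0.268). Psmd1, the scaffold subunit Rpn2, was the one non-ATPase with a negative value (−0.22, edgeR adjusted p = 0.527). Psmd3 (0.02), Psmd6 (0.25), Adrm1 (0.19) and Sem1 (0.54) overlapped between groups. Adrm1 shared reads with another gene in every library, and the predicted pseudogene Gm9774 carries the same KEGG orthologue as Adrm1.

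No test was made of whether the core and the cap differed. Their medians (0.34 and 0.28) and their called shares (1 of 14 and 2 of 19) were close, and the spread of values within each class was wider than the gap between the classes. Across 13 alternatives of scaling, filter, test and libraries, the core median ranged from 0.07 to 0.56 and that of the cap from 0.13 to 0.51.

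Immunoproteasome transcripts were scarce in lenses of both groups. Psmb8 (β5i) had 34 and 2 counts in cKO 1 and 2, against 22, 13 and 5 counts in Ctrl 1, 2 and 3. Per length this was 1.42 and 0.054 FPKM in cKO, against 0.823, 0.365 and 0.119 FPKM in Ctrl, and its constitutive counterpart Psmb5 had 180 and 257 FPKM in cKO, against 131, 154 and 173 FPKM in Ctrl. Psmb8 thus stood at 0.788 and 0.021% of the Psmb5 level in cKO and at 0.628, 0.236 and 0.0688% in Ctrl. Psmb10 (β2i) was the most abundant of the set, with 83 and 58 counts in cKO, against 89, 64 and 46 counts in Ctrl. Its FPKM were 3.1 and 2.64% of those of Psmb7 in cKO and 5.67, 4.13 and 2.02% in Ctrl. Psmb9 (β1i) had 9 and 3 counts in cKO, against 6, 0 and 0 counts in Ctrl, which is under the count limit for members.

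The cKO and Ctrl libraries overlapped for Psmb8 and Psmb10, and neither passed, nor did either reach an unadjusted p under 0.05 or a call by DESeq2 or limma. The log2 fold change was 0.25 for Psmb8 (SE 1.22, edgeR adjusted p = 0.914). For Psmb10 it was −0.11 with an SE of 0.47 (edgeR adjusted p = 0.895). With these errors, a change in Psmb8 of the size seen for Psme4 was not detectable in these libraries. Psmb8 was highest in cKO 1 (1.39 CPM), the library with the most macrophage marker RNA (295 CPM). It was lowest in cKO 2 (0.0745 CPM), which held 60.0 CPM of that RNA. The Ctrl libraries held only 2.27 to 4.04 CPM of that RNA and had 0.192 to 1.02 CPM of Psmb8, more than cKO 2. The part of macrophage RNA in the Psmb8 count was not tested. Lymphocyte markers were at or near 0, with Cd3e, Cd8a and Klrb1c at 0 counts in all libraries, and Nkg7 was the one marker of 8 that could be tested. Their sum was 3.55 and 4.17 CPM in the cKO libraries and 2.03 to 2.46 CPM in the Ctrl libraries. Most of this was Nkg7, at 3.14 and 4.17 CPM in cKO and 2.0 to 2.32 CPM in Ctrl, which did not pass (edgeR adjusted p = 0.175).

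**Figure D3:**
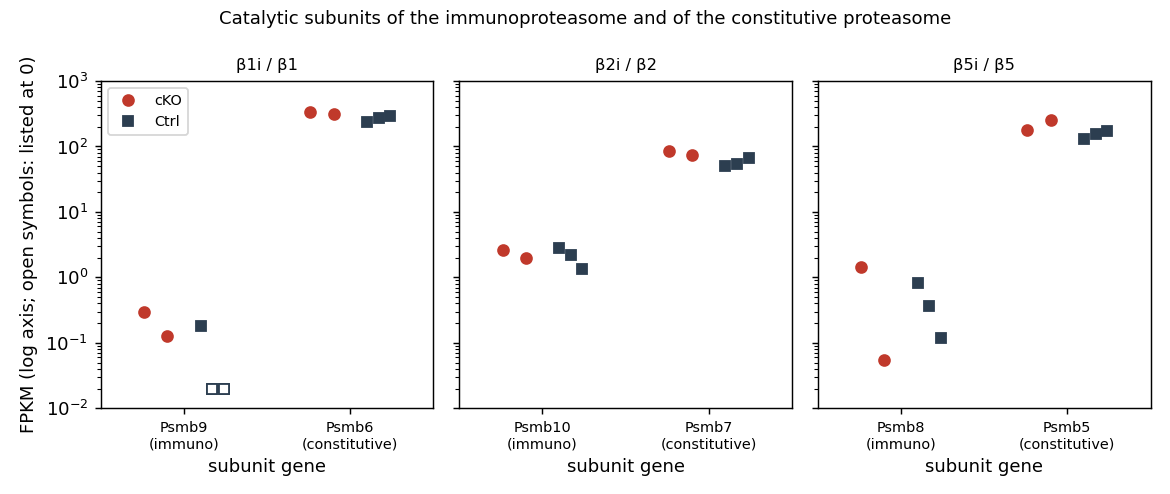
FPKM (log axis) of each immunoproteasome subunit beside the constitutive subunit it replaces, with 1 point per library (circles cKO, squares Ctrl, open squares listed at 0). In every library the immunoproteasome genes lie at 2.81 FPKM or less and the constitutive genes at 49.5 FPKM or more.

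Interferon signalling and class I presentation act upstream and downstream of the immunoproteasome. Ifng, the interferon-γ gene that the pathway lists beside the subunits, had 0 counts in all 5 libraries, which allows up to 0.112 to 0.146 CPM per library (3 counts, counting error only). Of 10 genes of interferon signalling, 2 were lower in cKO and 0 were higher by edgeR (also 0 higher at an unadjusted p under 0.05 and by DESeq2), with a median of −0.51. By limma on log2(FPKM + 1), 0 of the 10 were called. The receptor kinase gene Jak1 had 14.2 and 11.0 CPM in cKO, against 27.7, 26.4 and 22.4 CPM in Ctrl (−1.02, SE 0.19, edgeR adjusted p = 0.0271). Of 8 genes of class I presentation, 2 were higher and 1 was lower by edgeR, and DESeq2 and limma on log2(FPKM + 1) gave the same numbers. The median was −0.27, with 3 positive and 5 negative values. Both cKO libraries lay above every Ctrl library for 2 of the 8 genes and below for 3 (22.8 and 28.7% of all genes tested). B2m, the light chain of class I molecules, rose to 91.6 and 34.4 CPM in cKO, against 7.01, 5.61 and 3.53 CPM in Ctrl (3.55, SE 0.47, edgeR adjusted p = 0.0129), and H2-D1 to 75.8 and 27.1 CPM in cKO, against 13.1, 12.0 and 5.37 CPM in Ctrl (2.34, SE 0.52, edgeR adjusted p = 0.0382). Both were higher in cKO 1 than in cKO 2, as the macrophage markers were. Tapbp, the tapasin gene, was lower (−0.98, SE 0.22, edgeR adjusted p = 0.0395). The calls of Jak1, B2m, H2-D1 and Tapbp were each lost when any Ctrl library was left out. Those of Jak1, H2-D1 and Tapbp were also lost with the replicate block. With limma on log2(FPKM + 1) those of Jak1 and Tapbp were lost, so that the gene called lower there was not Tapbp. The Tapbp call was lost under total-count scaling and with limma on log2(FPKM + 0.1) as well.

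Of the 6 pathway rows outside the members, Psmb11 (the thymus-restricted β5t), Ifng and Gm21972 had 0 counts in every library. Psma8, a testis form of α4, had 0 and 17 counts in cKO, against 0, 1 and 1 counts in Ctrl. Psme2b had at most 2.47 counts. The members nearest the limit on the inner side were Psmb8 and Gm9774, which had 17.34 and 9.82 counts in cKO, against 2.28, 15.24 and 6.62 in Ctrl.

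In relative levels, per length, Psmb6 was the most abundant member in both groups (326 ± 9.76 FPKM in cKO, n = 2, and 264 ± 28.3 FPKM in Ctrl, n = 3, SD). Psmc5, Psmb5 and Psmb3 followed in Ctrl at 161, 153 and 141 FPKM, with differences between neighbours smaller than their SDs of 10.5, 21.0 and 13.7 in Ctrl, and in cKO the order was Psmb5, Psmb3 and Psmc5 at 218, 215 and 192 FPKM. Within the α ring, whose subunits are built into the core in equal number, FPKM differed 3.21-fold in cKO (from Psma2, 45.5, to Psma3, 146) and 3.81-fold in Ctrl (from Psma2, 24.6, to Psma3, 93.8). The 19 cap genes ranged from 16.9 to 192 FPKM in cKO and from 13.4 to 161 FPKM in Ctrl.

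Among members that act on the assembly or inhibition of proteasomes, Pomp, Psmd9 and Psmf1, 0 were called by edgeR, DESeq2 or limma and 0 had an unadjusted p under 0.05. Psmd9, a chaperone of the cap, had 21.3 and 19 CPM in cKO, against 18.4, 18.3 and 16.9 CPM in Ctrl (0.18, SE 0.15, edgeR adjusted p = 0.475). Pomp, the chaperone of β ring assembly, had 121 and 85.6 CPM in cKO, against 123, 112 and 99.0 CPM in Ctrl (−0.11, SE 0.20, edgeR adjusted p = 0.747), with some shared reads. Psmf1, which encodes the regulator PI31, had 19.4 and 13.7 CPM in cKO, against 16.5, 22.4 and 21.0 CPM in Ctrl (−0.27, SE 0.23, edgeR adjusted p = 0.459). Of 7 assembly chaperone genes edgeR called 0 (median 0.09; 1 higher and 1 lower at an unadjusted p under 0.05; 1 called higher by DESeq2 and 1 by limma). The most abundant per length were Psmg1 and Psmd10. Psmg1, which helps to form the α ring, had 13.2 and 14.8 CPM in the cKO libraries and between 16.7 and 22.5 CPM in the Ctrl libraries (−0.50, SE 0.19, edgeR adjusted p = 0.131). Psmd10, a chaperone of the cap also known as gankyrin, had 28.0 and 19.7 CPM in cKO, against 21.6, 22.6 and 22.9 CPM in Ctrl (0.09, SE 0.19, edgeR adjusted p = 0.783). Psmg2, the binding partner of Psmg1, was picked after its values were seen and went the other way, at 12.0 and 10.1 CPM in cKO, against 6.91, 5.76 and 6.45 CPM in Ctrl (0.80, SE 0.21, edgeR adjusted p = 0.054).

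Nfe2l1 encodes NRF1, the transcription factor that raises proteasome genes when proteasome activity is low, after processing by the products of Ngly1 and Ddi2. Of 7 genes of its regulation edgeR called 0 (median 0.06; 2 higher at an unadjusted p under 0.05; 2 called higher by DESeq2 and 1 by limma). Nfe2l1 had 47.7 and 57.4 CPM in cKO, against 38.1, 38.3 and 38.2 CPM in Ctrl (0.46, SE 0.14, edgeR adjusted p = 0.0786), with both cKO libraries above all Ctrl libraries. Vcp, an unfolding ATPase and the most abundant of the list, had 247 and 251 CPM in cKO, against 281, 284 and 294 CPM in Ctrl (−0.20, SE 0.13, edgeR adjusted p = 0.325).

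Among 12 genes of ubiquitin shuttles and proteasome-bound enzymes, edgeR called 1 lower and 0 higher (median 0.17; 3 higher at an unadjusted p under 0.05; 2 called higher by DESeq2 and 3 by limma). Zfand5 encodes a zinc-finger protein that binds the proteasome and stimulates it. Its level fell to 135 and 76.2 CPM in cKO, against 265, 312 and 281 CPM in Ctrl (−1.44, SE 0.27, edgeR adjusted p = 0.0255), with no overlap between groups. This call was lost with the replicate block and when any Ctrl library was left out (edgeR adjusted p up to 0.121). Among 6 ubiquitin and E1 genes edgeR called 0 (median 0.07; 1 higher at an unadjusted p under 0.05; 1 called higher by DESeq2 and 2 by limma). Ubb, the most abundant, had 2782 and 1964 CPM in cKO, against 3048, 3158 and 2715 CPM in Ctrl (−0.33, SE 0.20, edgeR adjusted p = 0.305).

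With TMM scaling, the 2 cKO libraries were not alike in proteasome transcripts. Of the 43 members, 37 (86.0%) had a higher CPM in cKO 1 than in cKO 2, against 51.1% of all genes tested and 56.9% of those with at least 10 CPM. The median log2 ratio to the Ctrl mean was 0.51 in cKO 1 and 0.08 in cKO 2 for the core, and 0.41 and 0.14 for the cap. Between cKO 1 and cKO 2 the median log2 ratio was 0.47 for the core genes and 0.19 for the cap genes, while the highest and lowest Ctrl libraries differed by medians of 0.12 and 0.09. These ratios depend on the TMM factors, which were 1.007 for cKO 1 and 1.185 for cKO 2. As a share of all counts, without these factors, the core genes took 0.183% in cKO 1 and 0.167% in cKO 2. The cap genes took 0.222 and 0.228%, so their order was reversed. The members with a higher level in cKO 2 were Psmb5, Psmc5, Psmd2, Psmd7, Psmd13 and Psme2. For the called genes Psme4, Psma2, Psmd4 and Psmd7 the log2 ratio of cKO 1 to cKO 2 was 0.30, 0.14, 0.13 and −0.07.

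Which members pass depended on the cKO library. Without cKO 2, 21 members were higher (48.8%; 17.7% of all genes) and 0 were lower (23.9% of all genes). Without cKO 1, 5 were higher (11.6%; 14.5% of all genes) and 4 were lower (9.3%; 23.3% of all genes), namely Psme3, Psmb4, Psmc4 and Psmd1, so that both shares then lay below those of the whole table. In both fits the single cKO library left has no spread of its own and takes that of Ctrl. The 4 called members were called in both cases. Without any 1 of Ctrl 1, 2 and 3 no member was called, with adjusted p-values of 0.0543, 0.067 and 0.0734 for Psme4, and the whole table then held 26, 6 and 30 higher genes. All these fits used TMM scaling. The macrophage markers were also higher in cKO 1 (295 CPM) than in cKO 2 (60.0 CPM), and their part in these results was not tested. As a share of all counts the macrophage markers took 0.0297% in cKO 1 and 0.0071% in cKO 2. The 43 members took 0.433 and 0.421%.

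**Figure D4:**
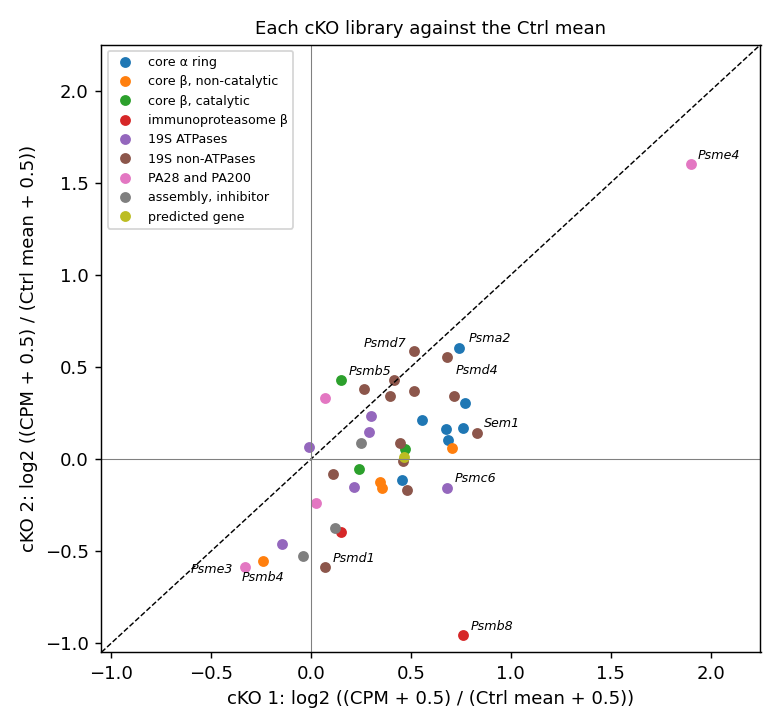
Log2 ratio to the Ctrl mean in cKO 1 (horizontal) and cKO 2 (vertical) of the 43 genes (CPM, 0.5 added), coloured by role, with the line of equal values dashed. Most points lie below the line, Psma2, Psmd4 and Psmd7 lie near it at 0.5 or more on both axes, and Psme4 lies apart at the upper right.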

How the data were processed

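Poly(A) RNA of pooled lenses was sequenced as paired reads of 150 bp in 5 libraries, per the labels' protocols (RNA integrity above 8.0, 1 µg of RNA per library). In the deposited table each gene has, for every library, an expected count and an FPKM. Tools listed in the submitters' processing notes are RSEM and Trimmomatic 0.18.0, with GRCm39 as the build. Not given in the sources used here were the aligner, the annotation and any use of strand. As deposited, the expected counts are not scaled between libraries, judged from their totals, and 6.03 to 7.47% of them per library were not whole, which marks reads shared between genes. FPKM values, normalized by the authors per the file headers, were used for levels between genes and as an alternative.

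Counts were rounded, filtered with filterByExpr (minimum count 10, minimum total 15; 11724 of 22183 genes, all 43 members among them), scaled by TMM and tested as cKO against Ctrl with edgeR 4.0.16 (quasi-likelihood F test, R 4.3.3, no block or batch term), with Benjamini-Hochberg adjustment over all genes tested. The SE of a log2 fold change comes from the F statistic. The procedure was run on simulated data with a smaller spread than these data (common dispersion 0.128), which does not measure its error rate here. Library totals of 22047580 to 25762802 set the floors given for genes at 0 counts, which cover counting error only. The SEs and p-values rest on the spread between pools.

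The members, the gene lists and the tests were chosen with earlier results of these data known. Each called member, the catalytic subunits and their immunoproteasome counterparts, the PA28 and PA200 genes, and the most abundant and most changed member of each role are given with all libraries, and at most 4 called genes of a related list, or its 2 most abundant. Where this text names others, it gives their fold change. Some genes of the related lists and 1 sequence are not reported here. Alternatives were total-count and RLE scaling, DESeq2 1.42.0, other count filters, limma 3.58.1 on log2 FPKM with 1 or 0.1 added, a replicate block, and each library left out.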

Additional observations from a re-analysis of the deposited data

How the results depend on the processing

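The number of called members moved with the processing. Against 4 members called higher with all libraries (5.76% of all genes), total-count scaling gave 10 (10.5%), the DESeq2 Wald test 9 (7.52%), limma on log2(FPKM + 1) 17 (11.8%) and on log2(FPKM + 0.1) 17 (12.0%), and the replicate block 0 (0.58%), with the share of all genes called higher in the same fit in parentheses. RLE scaling, no filter on low counts and a filter of 10 counts in 2 libraries gave 4 each. With each library left out in turn the number ranged from 0 (0.0519 to 0.261% without a Ctrl library) to 21 (17.7% without cKO 2). The members' median log2 fold change ranged from 0.05 (without cKO 1) to 0.47 over 13 alternatives, and the number of positive members from 25 (without cKO 1) to 39. The number called lower was 0 in all of these except without cKO 1 (range 0 to 4). The cause was not tested. The titles give cKO and Ctrl libraries the numbers 1 and 2. Deviations from the group means correlated at 0.112 and −0.084 for the same numbers. With 2 cKO libraries these deviations mirror each other, so the values cannot decide whether the numbers pair the samples. The block is given as a check only.

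Psme4, Psma2, Psmd4 and Psmd7 were called under every alternative except the replicate block and each Ctrl library left out, with log2 fold changes of 1.52 to 2.01, 0.59 to 0.89, 0.54 to 0.83 and 0.52 to 0.78 and adjusted p-values up to 0.0734, 0.204, 0.254 and 0.285. Their direction did not change. Of the other values of single members, 31 changed sign, none of them past the threshold. Under total-count scaling Psme1 (0.10), Psmb10 (0.10) and Pomp (0.09) were positive. With log2(FPKM + 1) these were 0.08, 0.09 and 0.09 and Psmf1 was 0.14, and with log2(FPKM + 0.1) they were 0.08, 0.14, 0.09 and 0.16. With the replicate block Psmb8 (−1.09), Psmc5 (−0.01) and Psmd3 (−0.01) were negative. Without Ctrl 1 Psmb10 was 0.22 and without Ctrl 3 Psmb8 was −0.15. Without cKO 1 and without cKO 2, in that order, the values were −0.13 and 0.46 for Psma6, −0.06 and 0.24 for Psmb6, −0.13 and 0.35 for Psmb1, −0.17 and 0.35 for Psmb2, −2.96 and 1.19 for Psmb8, −0.17 and 0.21 for Psmc2, −0.17 and 0.69 for Psmc6, −0.18 and 0.48 for Adrm1, −0.10 and 0.11 for Psmd3, and −0.02 and 0.47 for Psmd6. In the same order they were −0.25 and 0.02 for Psme1, −0.48 and 0.18 for Psmb10, −0.39 and 0.12 for Pomp, and −0.61 and 0.07 for Psmd1, and Psmc5 ranged from −0.00 to 0.08 with each library left out. The low counts of Psmb8, Psmb9 and Gm9774 limit what can be said of them.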
